A study of Rattus norvegicus with 10 samples.

Results

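A set of 6 rat genes of NF-kB feedback and STAT3 signalling, Nfkbia, Tnfaip3, Nfkb1, Birc3, Socs3 and Stat3, was followed in RNA from the stomach lining. The genes were chosen by identifier and chromosome out of 32623 features counted in every library, with earlier results of these data known. All 6 passed the filter on low counts. The tissue was gastric mucosa of Sprague Dawley rats, in 5 groups of 2 libraries. In the first group honokiol, a lignan of magnolia bark, was injected into the peritoneum (40 mg/kg) with a lead of 30 min over oral indomethacin (48 mg/kg). The next 3 groups received a non-steroidal anti-inflammatory drug (NSAID, an inhibitor of cyclooxygenases) alone by mouth, at 48 mg/kg for indomethacin, 75 mg/kg for diclofenac and 400 mg/kg for aspirin. Control libraries came from rats for which the labels name no treatment. Tissue was taken 4 h after the drug. For the honokiol group the time label reads 0.5 h, which has the length of the lead before indomethacin, so sampling at 4 h rests on the general protocol there. No group was labelled as given a vehicle or honokiol alone. Effects of honokiol itself, or of its injection, thus cannot be told apart from an effect on the response to indomethacin. The labelled cell type, epithelial cells, was not checked, since the files do not pair the identifiers of marker genes with names.

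NF-kB factors wait in the cytoplasm, held there by inhibitor proteins of the IkB family, and enter the nucleus once a stimulus such as tumour necrosis factor or interleukin-1 has had the inhibitor destroyed. Among the genes they switch on are their own brakes, so that the signal limits itself. STAT3 is the transcription factor activated by Janus kinases (JAK) at receptors of the interleukin-6 family, and SOCS3, made from one of its target genes, blocks those receptors and kinases. Both pathways are known from injured and inflamed gastric mucosa, and STAT3 from gastric tumours in mice.

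Windows at a listed start of the genes are shown where they hold a match to the kappa B consensus, the DNA element that NF-kB factors bind. They set the sequence beside the transcript values that follow. They come from RefSeq on the GRCr8 build, run 5′ to 3′ from 250 bases before the listed start to 50 after it, and carry the matches in capitals.

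Nfkbia, chr6:78597023-78597322, - strand: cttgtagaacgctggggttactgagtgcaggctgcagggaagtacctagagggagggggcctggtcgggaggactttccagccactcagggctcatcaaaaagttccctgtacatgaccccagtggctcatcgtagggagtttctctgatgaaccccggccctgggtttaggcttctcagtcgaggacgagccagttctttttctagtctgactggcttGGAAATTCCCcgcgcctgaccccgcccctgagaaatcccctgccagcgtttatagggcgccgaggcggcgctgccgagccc

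Tnfaip3, chr1:15543930-15544229, - strand: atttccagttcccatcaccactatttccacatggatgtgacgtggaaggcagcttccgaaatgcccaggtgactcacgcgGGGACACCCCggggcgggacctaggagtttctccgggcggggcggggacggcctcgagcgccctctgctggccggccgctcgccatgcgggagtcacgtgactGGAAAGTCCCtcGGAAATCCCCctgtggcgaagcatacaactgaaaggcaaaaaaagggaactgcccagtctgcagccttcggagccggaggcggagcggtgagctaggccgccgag

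Nfkb1, chr2:226805413-226805712, - strand: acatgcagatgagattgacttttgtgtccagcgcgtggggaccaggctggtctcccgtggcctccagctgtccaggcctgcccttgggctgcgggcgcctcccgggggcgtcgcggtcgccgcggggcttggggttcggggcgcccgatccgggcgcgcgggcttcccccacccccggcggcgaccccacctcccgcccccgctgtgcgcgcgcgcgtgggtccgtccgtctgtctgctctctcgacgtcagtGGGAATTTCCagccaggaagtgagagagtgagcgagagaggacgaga

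Socs3, chr10:103694719-103695018, - strand: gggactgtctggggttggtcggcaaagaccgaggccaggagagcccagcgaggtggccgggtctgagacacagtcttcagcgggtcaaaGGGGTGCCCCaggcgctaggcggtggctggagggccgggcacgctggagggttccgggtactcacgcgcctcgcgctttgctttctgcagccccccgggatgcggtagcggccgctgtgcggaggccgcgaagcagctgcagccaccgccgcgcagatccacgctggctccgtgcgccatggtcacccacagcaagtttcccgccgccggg

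A window was given for 5 of the 6 genes. The Tnfaip3 window held 3 matches on either strand, at bases 81 to 90, 184 to 193 and 196 to 205 counted from its first base, and the others shown held 1 each, at bases 220 to 229 in Nfkbia, 254 to 263 in Nfkb1 and 90 to 99 in Socs3. The Stat3 window held 0. Of 33469 rat windows of the same length, 4.18% held at least 1 match and 0.881% at least 2. The palindrome TTCNNNGAA, to which STAT factors bind, was in 0 of the 5 windows and in 8.87% of all windows. The Socs3 and Nfkb1 windows lie inside the span that RefSeq gives for the gene, so a further start upstream is not covered. Neither window need be the promoter of its gene. For Socs3 and Nfkb1 a match, or the lack of one, thus need not describe the promoter. A match describes letters only.

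Library totals ran from 23892226 to 44977459 counts. The share of counts on mitochondrial features was 31.5% and 35.4% with honokiol plus indomethacin, 32.4% and 21.7% with indomethacin, 21.4% and 21.1% with diclofenac, 23.8% and 22.8% with aspirin, and 35.1% and 36.2% in control. Both honokiol plus indomethacin libraries, indomethacin replicate 1 and control replicate 1 held 2733 to 4438 counts on 7 Y-chromosome features, and the other 6 libraries at most 47, so Y reads were uneven between the groups compared. Y reads show that the control pair and the indomethacin pair were not each 1 animal. For the other groups separate animals are not stated, and p-values then cover the spread between the sequenced libraries, which may be technical. Levels are counts per 1000000 (CPM) after scaling by trimmed mean of M values (TMM), and a gene was called at an edgeR quasi-likelihood adjusted p (Benjamini-Hochberg, over all 16346 genes tested) under 0.05. The drug comparisons share the control libraries. The deposited counts held 2 empty lines for each diclofenac and aspirin library and 1 for every other library. Control thus matched indomethacin and honokiol plus indomethacin in layout, and differed from diclofenac and aspirin. Whether the libraries were also prepared or sequenced in separate sets was not tested. A split of that kind would coincide with the comparisons of diclofenac and aspirin with control.

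Against control, 5 of the 6 genes rose with diclofenac (Tnfaip3, Nfkb1, Birc3, Socs3 and Stat3), the same 5 rose with aspirin, and Socs3 alone passed the test with indomethacin. Over all genes tested, 4.76% were called higher with diclofenac, 9.5% with aspirin and 0.752% with indomethacin. Because the 6 were chosen with earlier results known, setting them beside such shares is a description and no test of the set. None of the 6 was called lower, as 3.11% of all genes were with diclofenac, 8.26% with aspirin and 0.0245% with indomethacin, which makes 7.87%, 17.8% and 0.777% called in either direction. For these 5 genes both libraries of each drug lay above both controls, which was so for 20.1% of all genes with indomethacin, 27% with diclofenac and 30.4% with aspirin. None of the 6 had both libraries below both controls, as 18.2%, 28.3% and 30.2% of all genes did with these drugs. Nfkbia overlapped with control in each of the 3 comparisons. With a term for Y reads, which control replicate 1 held and the diclofenac and aspirin libraries lacked or nearly lacked, 2 of the 5 passed with either diclofenac or aspirin, Socs3 and Stat3. These were also the 2 that passed with diclofenac without control replicate 1 or diclofenac replicate 2, and with aspirin without control replicate 1 or either aspirin library. Calls over all genes with diclofenac were 383 with the term, 319 without control replicate 1 and 424 without diclofenac replicate 2, against 1286 as reported. With aspirin they were 683 with the term, 467 without control replicate 1, 462 without aspirin replicate 1 and 3606 without aspirin replicate 2, against 2903 as reported. The median log2 fold change of the 6 genes was 1.49 with indomethacin, 1.75 with diclofenac and 1.68 with aspirin, where the median of all genes lay between -0.02 and 0. Honokiol plus indomethacin against indomethacin gave 1 call, lower Socs3, where 0.3% of all genes were called lower and 0.0428% higher, 0.343% in all. Honokiol plus indomethacin against control gave 0 calls among the 6 and 0 among all genes (0%) by edgeR, with 816 genes at an unadjusted p under 0.05 and 15 called by DESeq2, none of them one of the 6. Both honokiol libraries lay above both controls for Tnfaip3, Nfkb1, Socs3 and Stat3, which was so for 18.3% of all genes. They lay below both controls for Nfkbia, as for 19.4% of all genes. Of the 6, all but Nfkb1 had both honokiol libraries below both indomethacin libraries, as had 23.6% of all genes. In bulk tissue, more cells that express a gene and more RNA per cell cannot be told apart.

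**Figure D1:**
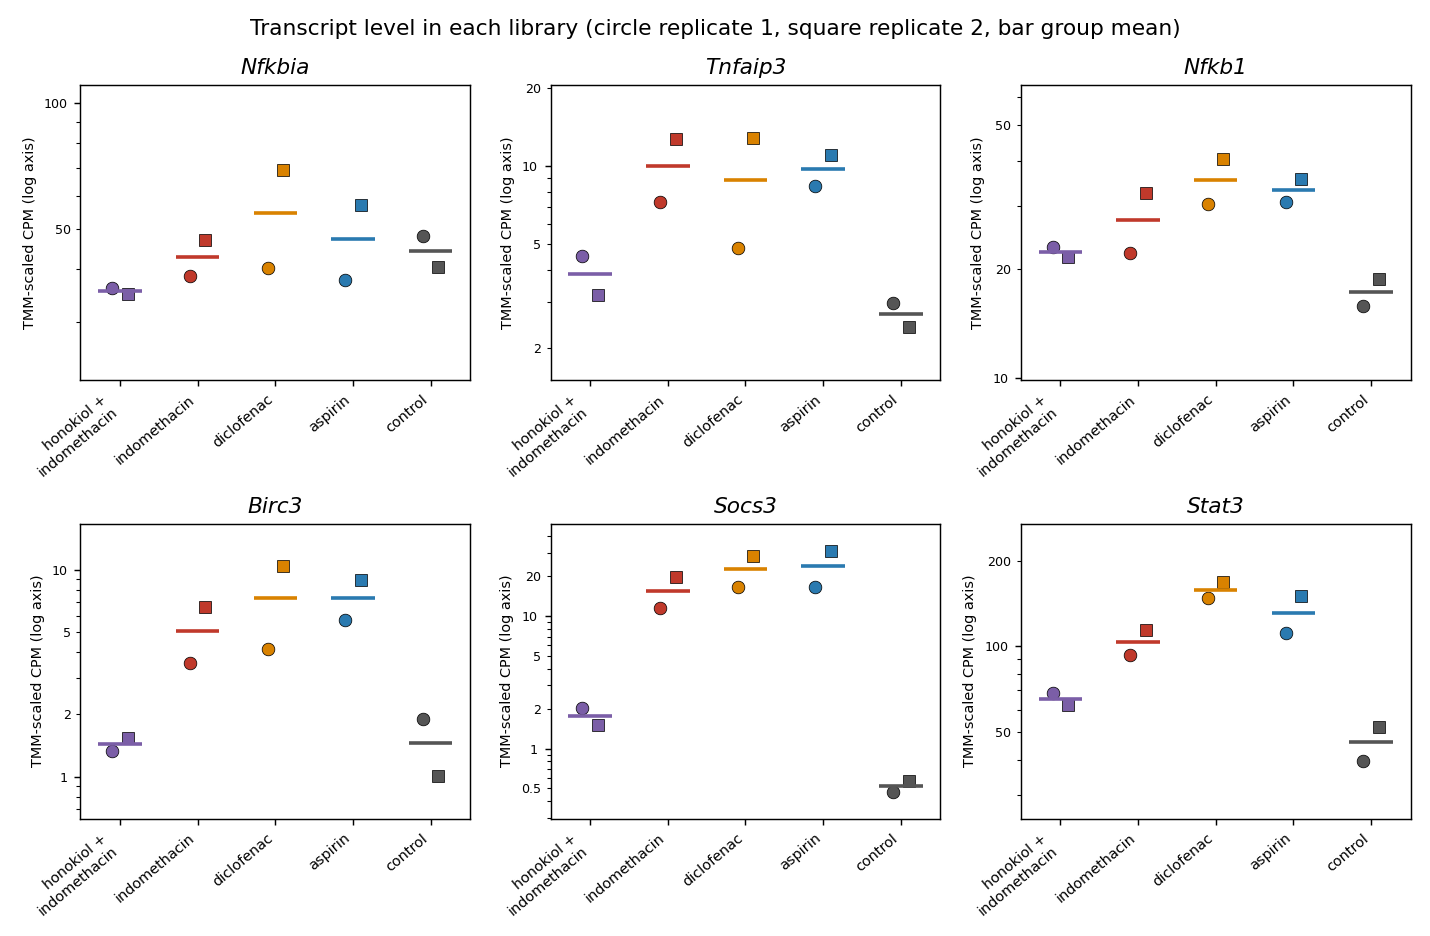
TMM-scaled CPM of each gene on log axes in the 10 libraries, by group, with circles for replicate 1, squares for replicate 2 and bars for group means. Socs3 lies at 11.5 to 31.1 CPM with the 3 drugs given alone, at 1.5 and 2.04 CPM with honokiol plus indomethacin and near 0.5 CPM in control, while the Nfkbia groups overlap for each drug given alone.

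Socs3, the inhibitor of interleukin-6 type receptors (ENSRNOG00000002946, chromosome 10, 106975178 to 106976040, minus strand, 1 exon of 863 bases in the files' own coordinates, whose build no source used here gives), had the lowest CPM of the 6 genes in control and the largest fold changes with every drug. It had 2.04 and 1.5 CPM with honokiol plus indomethacin, 11.5 and 19.7 with indomethacin, 16.5 and 28.5 with diclofenac, 16.6 and 31.1 with aspirin, and 0.474 and 0.568 in control. These were 412 and 765 counts with indomethacin, against 15 counts (exact Poisson 95% interval 8.4 to 24.7) and 17 counts (9.9 to 27.2) in control, where the intervals cover counting error only. Every library of a drug given alone thus lay far above both controls, and the honokiol libraries lay between the 2 sets without overlap.

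Socs3 rose by a log2 fold change of 4.9 ± 0.47 with indomethacin, a 29.8-fold difference (SE, n = 2 each, edgeR adjusted p = 0.0032). With diclofenac it rose by 5.43 ± 0.48 (edgeR adjusted p = 6e-04) and with aspirin by 5.51 ± 0.48 (edgeR adjusted p = 0.00088), which are 43.0-fold and 45.6-fold. By size of the log2 fold change it stood 42nd of 16346 genes with indomethacin, 68th with diclofenac and 65th with aspirin. By p-value it stood 3rd, 8th and 4th. Honokiol plus indomethacin against indomethacin gave a log2 difference of -3.13 ± 0.41, so that Socs3 fell to 0.114 of its level with indomethacin alone (SE, n = 2 each, edgeR adjusted p = 0.018). Against control the honokiol group had 1.76 ± 0.49, or 3.4-fold, with no overlap, which did not pass (edgeR adjusted p = 0.83, unadjusted p = 0.0046). Both honokiol libraries lay above both controls for 18.3% of all genes.

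The calls for Socs3 with diclofenac and aspirin held with each of the 10 libraries left out. With indomethacin the call was lost without control replicate 1 (log2 fold change 4.79, edgeR adjusted p = 0.07) and without control replicate 2 (5.04, 0.077). The lower level with honokiol lost its call without indomethacin replicate 2 (-2.69, edgeR adjusted p = 0.055), honokiol plus indomethacin replicate 1 (-3.38, 0.16) or replicate 2 (-2.93, 0.25). Among libraries with Y reads, the honokiol pair stood at 0.154 of indomethacin replicate 1, and indomethacin replicate 1 was 24.3-fold above control replicate 1. Among those without Y reads, indomethacin replicate 2 was 34.6-fold above control replicate 2. Indomethacin was therefore above control in both sets, while honokiol could be set against indomethacin only among libraries with Y reads.

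Stat3, the transcription factor itself (ENSRNOG00000019742, chromosome 10, 88790408 to 88842233, minus strand, 24 exon coordinates, 4428 bases), was already abundant in control. It had 68.4 and 62.1 CPM with honokiol plus indomethacin, 93.3 and 115 with indomethacin, 147 and 169 with diclofenac, 112 and 150 with aspirin, and 39.7 and 52.3 in control. All 8 treated libraries exceeded both controls, the honokiol libraries by the least. Stat3 rose by a log2 fold change of 1.78 ± 0.25 with diclofenac (3.43-fold, edgeR adjusted p = 0.0031) and by 1.51 ± 0.24 with aspirin (2.84-fold, edgeR adjusted p = 0.0056; SE, n = 2 each), and both calls held with each library left out and with a term for Y reads. With indomethacin its log2 fold change was 1.18 ± 0.24 (2.26-fold, SE), just outside the threshold (edgeR adjusted p = 0.053). It passed with a stricter low-count filter (edgeR adjusted p = 0.048), with a term for Y reads (0.044), with no low-count filter (0.001) and with DESeq2 (0.00039). It did not pass with RLE factors (edgeR adjusted p = 0.063) or a replicate block (0.052). With 1 library left out, the Stat3 log2 fold change with indomethacin ran from 1.01 (without control replicate 1) to 1.4 (without control replicate 2). It passed in 2 of these 10 fits, those without an aspirin library. The honokiol group had log2 differences of -0.67 ± 0.24 from indomethacin (edgeR adjusted p = 0.41) and 0.5 ± 0.24 from control (edgeR adjusted p = 0.83; SE).

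Per kilobase of exon, the level of Socs3 relative to that of Stat3 in the same library does not depend on library scaling. This ratio was 0.153 and 0.124 with honokiol plus indomethacin, 0.632 and 0.88 with indomethacin, 0.575 and 0.868 with diclofenac, 0.762 and 1.06 with aspirin, and 0.0612 and 0.0557 in control. Per kilobase, Socs3 RNA was thus at 0.575 to 1.06 of Stat3 RNA in the 6 drug libraries and far under it in control. The honokiol ratios lay above both control ratios and under every drug ratio. The deposited Socs3 feature is a single exon of 863 bases, so its level per kilobase rests on a short stretch. With 2 libraries a group an exact permutation test cannot reach 0.05, and no test of the ratio was made.

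**Figure D2:**
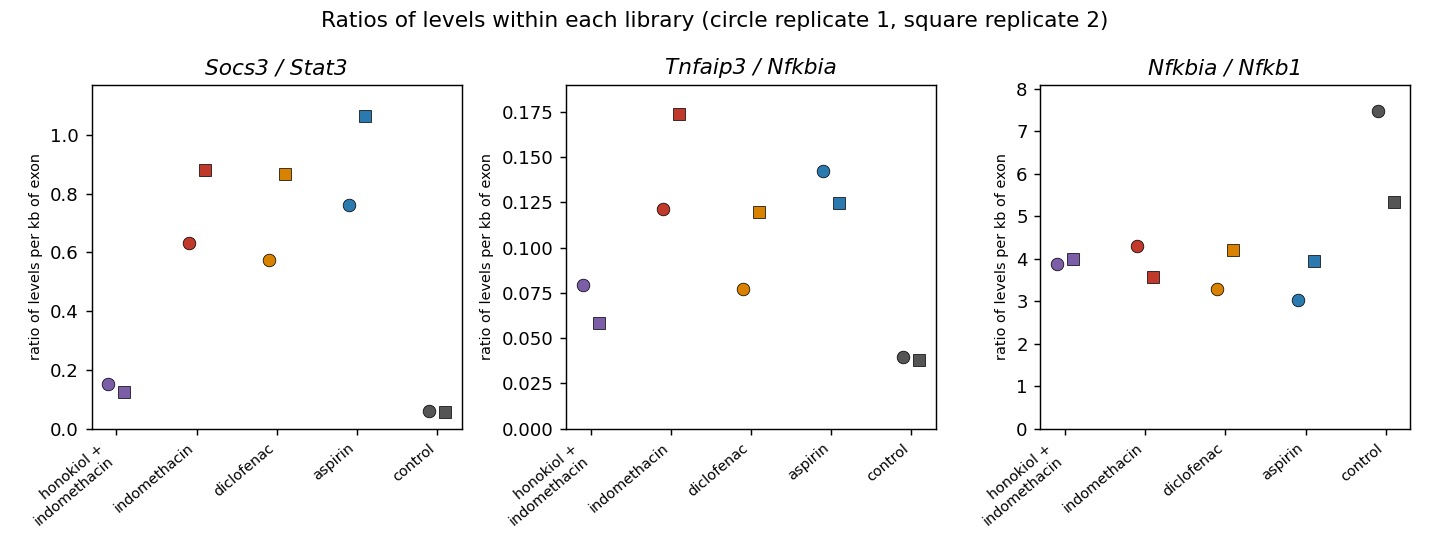
Ratio of the levels per kilobase of exon of 2 genes in the same library, on axes from 0, for Socs3 over Stat3, Tnfaip3 over Nfkbia and Nfkbia over Nfkb1, with circles for replicate 1 and squares for replicate 2. The 6 libraries of a drug alone have Socs3 to Stat3 ratios of 0.575 to 1.06, those of honokiol plus indomethacin 0.124 and 0.153, and the controls 0.0557 and 0.0612.

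Tnfaip3 encodes a ubiquitin-editing enzyme that shuts off signalling from tumour necrosis factor and Toll-like receptors (ENSRNOG00000049517, chromosome 1, 14402913 to 14412807, minus strand, 8 exon coordinates, 2445 bases). It had 4.5 and 3.18 CPM with honokiol plus indomethacin, 7.31 and 12.8 with indomethacin, 4.85 and 12.9 with diclofenac, 8.39 and 11.1 with aspirin, and 2.97 and 2.4 in control. Drug libraries lay above controls without overlap, and the diclofenac libraries differed from each other by 2.65 times, the widest replicate gap of this gene. Tnfaip3 rose with aspirin by a log2 fold change of 1.86 ± 0.45 (3.63-fold, edgeR adjusted p = 0.026) and with diclofenac by 1.72 ± 0.45 (3.29-fold, edgeR adjusted p = 0.048; SE, n = 2 each). With indomethacin it had 1.9 ± 0.45 (3.74-fold, SE) and did not pass (edgeR adjusted p = 0.12), although this value was the highest of the 3. It passed there with DESeq2 (adjusted p = 0.00097) and with no low-count filter (edgeR adjusted p = 6.7e-10). It did not pass there with RLE factors (edgeR adjusted p = 0.13), a stricter filter (0.11), a replicate block (0.09) or a term for Y reads (0.19). With 1 library left out, its log2 fold change with indomethacin ran from 1.44 (without indomethacin replicate 2) to 2.27 (without indomethacin replicate 1). It passed in 2 of these 10 fits, those without a diclofenac library, although diclofenac is not part of this comparison. The difference of honokiol plus indomethacin from indomethacin was -1.38 ± 0.44 (SE), without overlap and not past the threshold (edgeR adjusted p = 0.35, and with no low-count filter -1.41 and 2.2e-05). Both honokiol libraries lay below both indomethacin libraries for 23.6% of all genes. From control the difference was 0.52 ± 0.46 (edgeR adjusted p = 0.83).

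The Tnfaip3 call with diclofenac held in 3 of the 10 fits that left out a library. Among the fits that lost it at a similar log2 fold change were those without control replicate 1 (1.91, edgeR adjusted p = 0.2) or 2 (1.6, 0.15), honokiol plus indomethacin replicate 1 (1.72, 0.064) or 2 (1.75, 0.065), and aspirin replicate 1 (1.72, 0.072) or 2 (1.72, 0.073). It was also lost with RLE factors (1.73, edgeR adjusted p = 0.051) and with a term for Y reads (1.55, 0.19). Without diclofenac replicate 2 the log2 fold change itself was smaller (0.85, edgeR adjusted p = 0.22). With aspirin it was lost without control replicate 1 (2.06, edgeR adjusted p = 0.12) or 2 (1.75, 0.1), aspirin replicate 1 (2.05, 0.11) or 2 (1.63, 0.082), and with the term for Y reads (1.69, 0.11). The sign was positive in each of these fits.

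Birc3 encodes an inhibitor of apoptosis with ubiquitin ligase activity that acts beside the tumour necrosis factor receptor (ENSRNOG00000005731, chromosome 8, 6048969 to 6076598, minus strand, 11 exon coordinates, 2263 bases). It had 1.33 and 1.53 CPM with honokiol plus indomethacin, 3.54 and 6.6 with indomethacin, 4.13 and 10.4 with diclofenac, 5.7 and 8.9 with aspirin, and 1.89 and 1 in control. The honokiol libraries lay between the controls, and every library of a drug alone lay above them. Birc3 rose with diclofenac by a log2 fold change of 2.32 ± 0.51 (5-fold, edgeR adjusted p = 0.027) and with aspirin by 2.33 ± 0.51 (5.04-fold, edgeR adjusted p = 0.019; SE, n = 2 each). With indomethacin it had 1.8 ± 0.51 (3.49-fold, SE, edgeR adjusted p = 0.19), which passed with DESeq2 (adjusted p = 0.01) and with no low-count filter (edgeR adjusted p = 3.9e-07). It did not pass there with RLE factors (edgeR adjusted p = 0.21), a stricter filter (0.18), a replicate block (0.16) or a term for Y reads (0.29). With 1 library left out, this log2 fold change ran from 1.29 (without indomethacin replicate 2) to 2.36 (without control replicate 1). It passed in 1 of these 10 fits, that without diclofenac replicate 1. Honokiol plus indomethacin differed from indomethacin by -1.83 ± 0.51 without overlap (SE, edgeR adjusted p = 0.24), a difference that DESeq2 called (adjusted p = 0.013), as did edgeR with no low-count filter (adjusted p = 4.1e-07). Such lack of overlap in the lower direction was seen for 23.6% of all genes. From control the difference was -0.02 ± 0.54 (95% interval -1.22 to 1.18, edgeR adjusted p = 0.99).

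Birc3 had the fewest reads of the 6 over all libraries, 1707, with 60 and 30 in the controls, and its paralog Birc2 is similar in sequence, so reads may be shared and its values are uncertain to that extent. With diclofenac its call was lost without control replicate 1 (log2 fold change 2.89, edgeR adjusted p = 0.085) or 2 (1.97, 0.095), diclofenac replicate 2 (1.5, 0.096) and with a term for Y reads (2.25, 0.12). With aspirin it was lost without control replicate 1 (2.9, edgeR adjusted p = 0.064) or 2 (1.98, 0.072), aspirin replicate 1 (2.61, 0.065) or 2 (1.96, 0.054), and with the term for Y reads (2.26, 0.087).

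Nfkb1, which encodes the precursor and DNA-binding subunit of NF-kB dimers (ENSRNOG00000023258, chromosome 2, 240773456 to 240866689, minus strand, 23 exon coordinates, 3866 bases), had smaller log2 fold changes with every drug than the 4 genes above. It had 23.1 and 21.6 CPM with honokiol plus indomethacin, 22.1 and 32.5 with indomethacin, 30.3 and 40.4 with diclofenac, 30.7 and 35.6 with aspirin, and 15.9 and 18.8 in control. All 8 treated libraries exceeded both controls, and the honokiol libraries overlapped with indomethacin. Nfkb1 rose by a log2 fold change of 1.03 ± 0.23 with diclofenac (2.04-fold, edgeR adjusted p = 0.024) and by 0.94 ± 0.23 with aspirin (1.92-fold, edgeR adjusted p = 0.024; SE, n = 2 each). With indomethacin it had 0.66 ± 0.23 (1.58-fold, SE), which did not pass (edgeR adjusted p = 0.31) and passed in 0 of the 16 alternative fits. The honokiol group had -0.29 ± 0.23 against indomethacin (95% interval -0.8 to 0.21) and 0.37 ± 0.23 against control (-0.14 to 0.88), neither past the threshold (edgeR adjusted p = 0.78 and 0.83).

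The Nfkb1 calls also rested on single libraries. With diclofenac the call was lost without control replicate 1 (log2 fold change 0.94, edgeR adjusted p = 0.14), without diclofenac replicate 2 (0.8, 0.14) and with a term for Y reads (0.83, 0.092). With aspirin it was lost without control replicate 1 (0.86, edgeR adjusted p = 0.12), aspirin replicate 1 (1.04, 0.073) or 2 (0.82, 0.058), and with the term for Y reads (0.74, 0.087).

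Nfkbia encodes the classical IkB inhibitor that holds NF-kB in the cytoplasm and is remade after each wave of signalling (ENSRNOG00000007390, chromosome 6, 76267228 to 76270457, minus strand, 6 exon coordinates, 1565 bases). It was not called in any of the 5 comparisons. It had 36.2 and 34.9 CPM with honokiol plus indomethacin, 38.5 and 47.1 with indomethacin, 40.2 and 68.9 with diclofenac, 37.7 and 57 with aspirin, and 48 and 40.5 in control. The honokiol libraries were the 2 lowest of the 10, and each drug group held a library below the higher control. Log2 fold changes against control were -0.05 ± 0.28 with indomethacin (95% interval -0.66 to 0.56), 0.3 ± 0.28 with diclofenac (-0.31 to 0.91) and 0.1 ± 0.28 with aspirin (-0.51 to 0.7), with edgeR adjusted p of 0.97, 0.52 and 0.82 (SE, n = 2 each). Changes within these bounds, up or down, could not be resolved with 2 libraries a group. The honokiol group had -0.27 ± 0.28 against indomethacin and -0.32 ± 0.28 against control (SE, edgeR adjusted p = 0.84 and 0.83), in both without overlap, which was so in the lower direction for 23.6% and 19.4% of all genes.

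Set against Tnfaip3 and Nfkb1 in the same library, Nfkbia was relatively lower in every treated library than in either control. Tnfaip3 and Nfkb1 themselves lay above both controls in all 8 treated libraries, so these ratios partly repeat their rises. How many other genes without a change would show the same was not tested. Per kilobase, the ratio of Tnfaip3 to Nfkbia was 0.0584 and 0.0796 with honokiol plus indomethacin, 0.0773 to 0.174 in the 6 libraries of a drug alone, and 0.038 and 0.0396 in control. The ratio of Nfkbia to Nfkb1 was 3.88 and 3.98 with honokiol plus indomethacin, 3.04 to 4.29 with a drug alone, and 5.34 and 7.48 in control. For both ratios all 8 treated libraries lay on 1 side of the controls, the honokiol libraries included. Neither ratio was tested.

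Per kilobase of exon, the order of the 6 genes also differed between groups. With honokiol plus indomethacin Socs3 came after Nfkbia, Stat3 and Nfkb1, at 2.05 ± 0.45 CPM per kb, ahead of Tnfaip3 at 1.57 ± 0.38 (SD, n = 2), and the libraries of Socs3 and Tnfaip3 overlapped. Socs3 came after Nfkbia and Stat3 in each drug group, at 18 ± 6.7 CPM per kb with indomethacin, 26.1 ± 9.8 with diclofenac and 27.6 ± 12 with aspirin (SD, n = 2 each). With aspirin the mean levels of Nfkbia, Stat3 and Socs3 lay within their SD of each other, with Nfkbia at 30.3 ± 8.7 and Stat3 at 29.5 ± 6.2 CPM per kb. With diclofenac Nfkbia had 34.9 ± 13 and Stat3 35.7 ± 3.4 CPM per kb, and Socs3 lay below Stat3 by more than the SD of Stat3. Both Socs3 libraries with diclofenac (19.1 and 33 CPM per kb) were below both Stat3 libraries (33.3 and 38.1). In control Nfkbia stood first, at 28.3 ± 3.4 CPM per kb, followed by Stat3 at 10.4 ± 2, Nfkb1 at 4.48 ± 0.53, Tnfaip3 at 1.1 ± 0.16, Birc3 at 0.64 ± 0.28 and Socs3 at 0.603 ± 0.077 (SD, n = 2), where the levels of Birc3 and Socs3 did not differ beyond their spread.

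**Figure D3:**
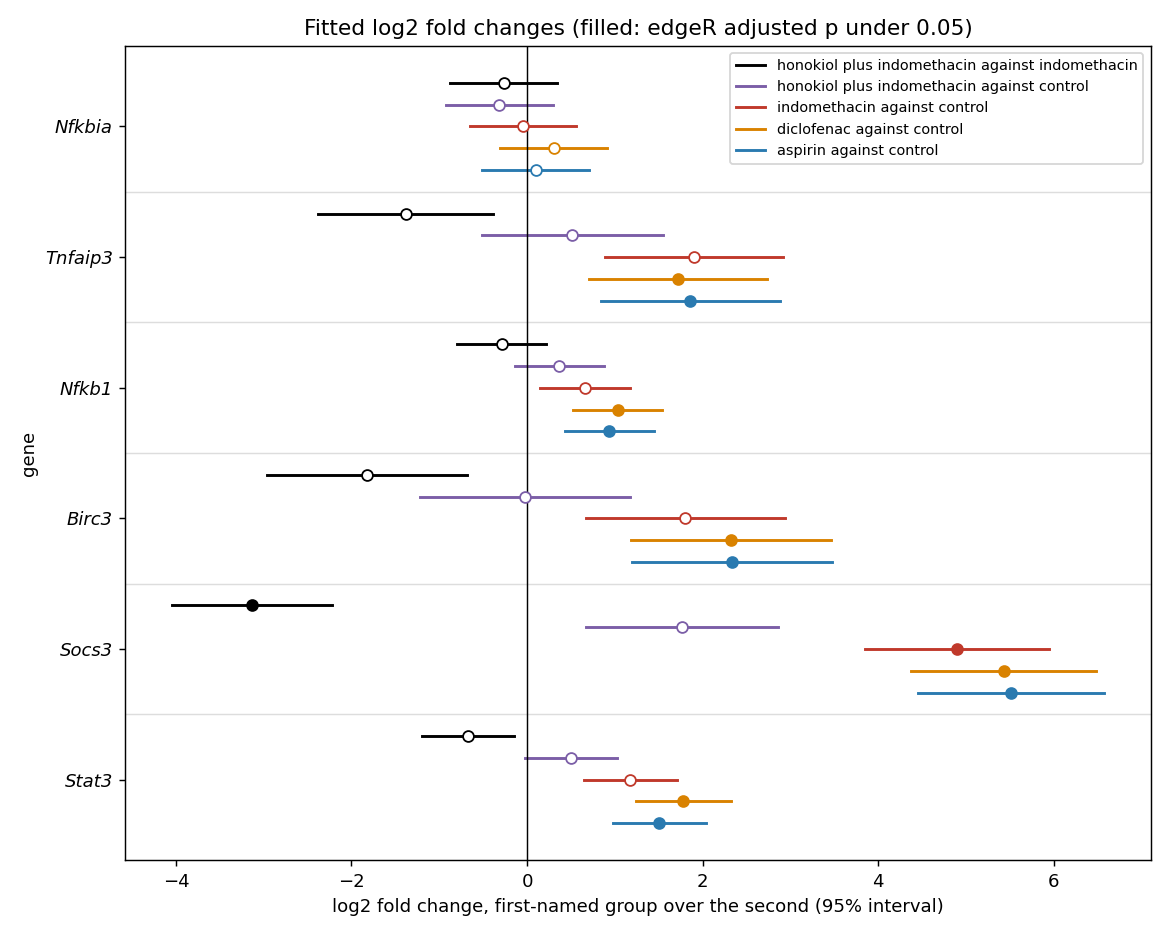
Log2 fold changes of the 6 genes with their 95% intervals in 5 comparisons, the first-named group over the second, filled where the edgeR adjusted p is under 0.05. Socs3 is filled for each drug against control and, on the negative side, for honokiol plus indomethacin against indomethacin, while the Nfkbia points, from -0.32 to 0.3, are all open.

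The doses of the drugs differ, so the drugs were not tested against each other. Diclofenac and aspirin also differed from indomethacin in the layout of their counts. Side by side, the values were lowest with indomethacin for 4 of the 5 genes that rose with diclofenac and aspirin. Their log2 fold changes were 0.66, 1.8, 4.9 and 1.18 with indomethacin at 48 mg/kg for Nfkb1, Birc3, Socs3 and Stat3, against 1.03, 2.32, 5.43 and 1.78 with diclofenac at 75 mg/kg and 0.94, 2.33, 5.51 and 1.51 with aspirin at 400 mg/kg. Tnfaip3 was the exception, at 1.9, 1.72 and 1.86. All of these but Socs3 missed the threshold with indomethacin, which does not show that they differed between drugs.

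**Figure D4:**
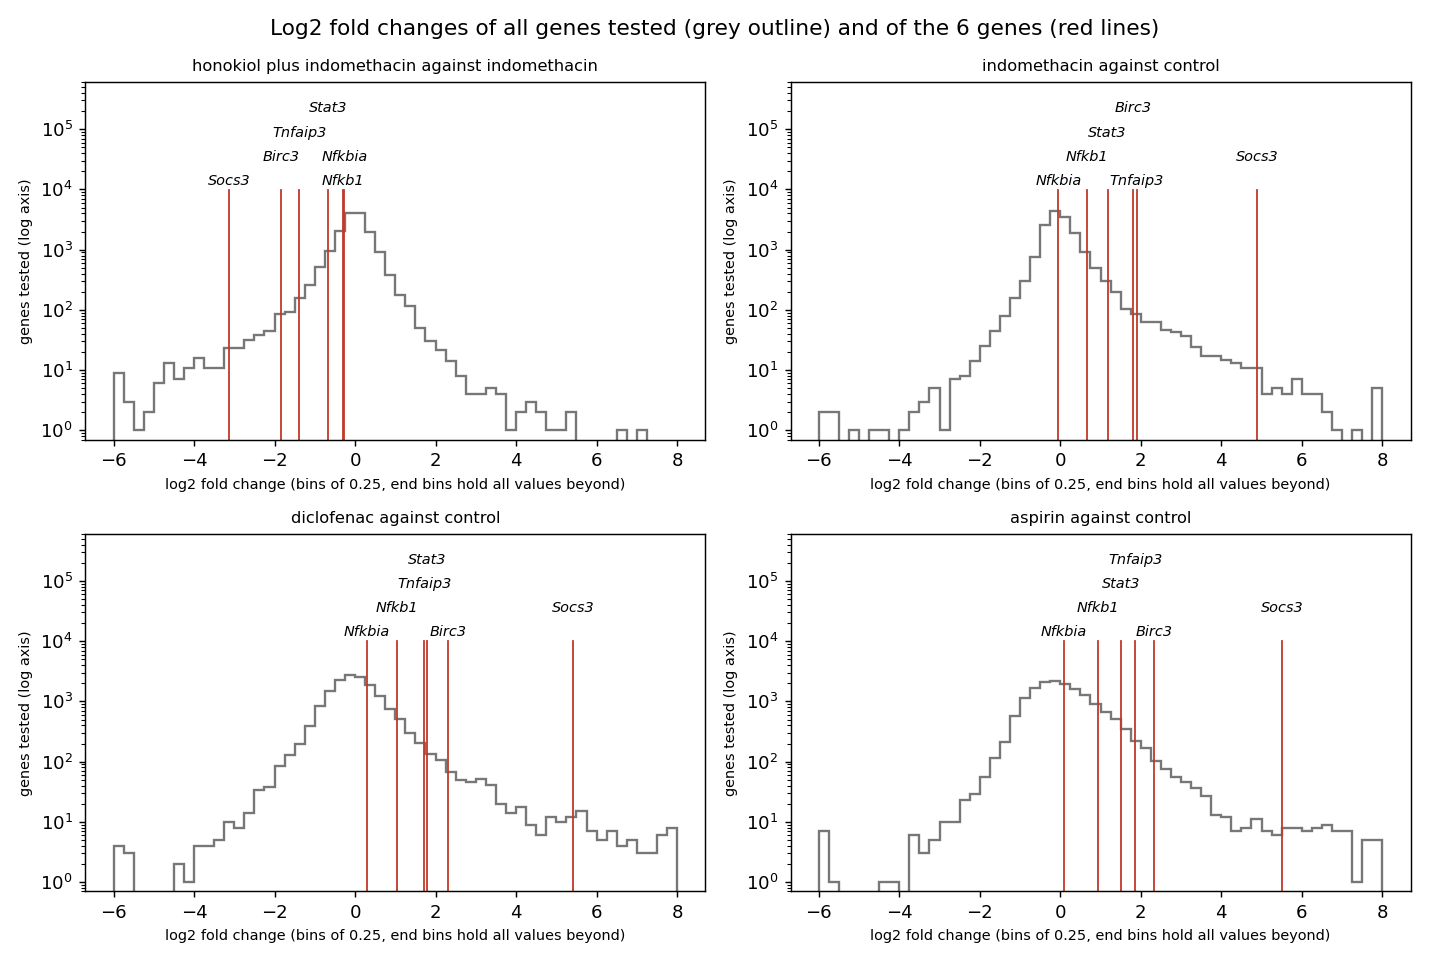
Number of genes tested (log axis) by log2 fold change in 4 comparisons, with the 6 genes as red lines. Socs3 stands in the outer tail of each drug comparison, above 99.7% of genes with indomethacin and 99.6% with diclofenac and with aspirin, and on the low side for honokiol plus indomethacin against indomethacin, with 0.593% of genes below it.

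With honokiol before indomethacin, all 6 log2 differences from indomethacin alone were negative, from -3.13 for Socs3 to -0.27 for Nfkbia, with a median of -1.03. The share of all genes with a lower value was 0.593% for Socs3, 1.87% for Birc3, 2.97% for Tnfaip3, 9.94% for Stat3, 23.9% for Nfkb1 and 25.6% for Nfkbia. Against control, Socs3 kept the highest value, above 98.9% of genes, followed by Tnfaip3 at 88.6%, Stat3 at 88.2% and Nfkb1 at 82.5%. Birc3, at 48.7%, was in the middle of all genes and Nfkbia, at 19.1%, in the lower part. The comparison of honokiol with indomethacin shares the indomethacin libraries with that of indomethacin with control, and both honokiol libraries held Y reads while 1 of the indomethacin libraries did. Within the libraries with Y reads, the log2 difference of the honokiol pair from indomethacin replicate 1 was -2.72 for Socs3, -1.31 for Birc3, -0.95 for Tnfaip3, -0.52 for Stat3, -0.12 for Nfkbia and 0.01 for Nfkb1. All but Nfkb1 thus kept the sign, each at a smaller size. Indomethacin replicate 1 was the lower indomethacin library for all 6 genes, so a smaller size had to follow. These values rest on that 1 indomethacin library and are no check apart from the fit without indomethacin replicate 2.

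In each of the 3 drug groups, all 6 genes were higher in replicate 2 than in replicate 1. Of all genes tested, 49.2% were higher in replicate 2 with indomethacin, 50% with diclofenac and 50.6% with aspirin, and 10.8% in all 3. The ratio of the higher to the lower library reached 2.65 for Tnfaip3 and 2.53 for Birc3 with diclofenac, and was 1.71 for Nfkbia in that group. In the honokiol group 1 of the 6 was higher in replicate 2 and in control 3 of the 6. Indomethacin replicate 2 had 21.7% of its counts on mitochondrial features, against 32.4% in replicate 1, while the shares of the diclofenac and aspirin pairs differed by far less. The part of these library differences in the results was not tested.

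Over the 10 libraries the 5 genes other than Nfkbia followed each other in log2 CPM, and these correlations are a description over points that share groups and libraries. The closest pair was Socs3 and Stat3, at r = 0.97. Among 16345 other genes Socs3 was in place 15 by likeness to Stat3, and Stat3 in place 44 by likeness to Socs3. Nfkb1 and Stat3 followed at r = 0.96, with Stat3 in place 15 by likeness to Nfkb1 and Nfkb1 in place 39 by likeness to Stat3. Socs3 and Birc3 had 0.94. The least alike of the 5 were Stat3 and Tnfaip3, at r = 0.84. Tnfaip3 was in place 723 by likeness to Stat3 and Stat3 in place 400 by likeness to Tnfaip3, so many other genes were more alike. Nfkbia was nearest to Birc3, at r = 0.69, and furthest from Socs3, at 0.47. The genes most like Socs3 in the files lay on chromosome 13 from 71179910 to 71185216 (5 exon coordinates) and on chromosome 9 from 42871950 to 42884855 (9 exon coordinates), both at r = 0.99, and are not named since the files do not pair their identifiers with names. The gene most like Nfkbia, on chromosome 6 from 11281964 to 11298216 (9 exon coordinates), had r = 0.97.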

How the data were processed

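RNA of rat gastric mucosa was measured in 10 libraries. Libraries were stranded, made after removal of ribosomal RNA and read as paired ends of 100 bp, per the labels' protocols. The tools named are HISAT2 2.1.0, featureCounts, cutadapt 1.16, FastQC 0.11.7, DESeq2, SAMtools and bcl2fastq, per the submitters' processing notes. Deposited values are unscaled counts per gene, in the featureCounts layout per the file headers. Build, strand setting and handling of multiply matching reads: not given in the sources used here. The deposited exon lengths were used for levels per kilobase. Totals of 23892226 to 44977459 counts limit the precision of low genes.

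The 6 genes and all lists were chosen with earlier results of these data known. Their symbols come from the rule that defined the set. Chromosome matched RefSeq for 6 and strand for 5, the sixth having no entry with a strand, and 0 other features overlap them. Of 32623 identifiers, 0 matched the reference table, so 12 pathway lists and 15 marker lists fixed by symbol could not be applied and have no result. All 6 genes are described, and for the genes most alike, at most 2 per gene by Pearson r over log2(CPM + 0.5) with mean log2 CPM of 1 or more, positions are given for some.

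Genes were tested by edgeR (version 4.0.16, under R 4.3.3), using its robust quasi-likelihood F test on group after TMM scaling. Low genes were removed by filterByExpr at a count of 10 and a total of 15. All 10 libraries entered 1 fit, with 5 residual degrees of freedom. SE is the log2 fold change divided by the square root of F. Alternatives were RLE factors, no filter, a stricter filter (1 CPM and 10 counts in at least 2 libraries), DESeq2 1.42.0, a replicate block, a term for Y reads and each library left out. Libraries with Y reads are those above 1000 counts, summed over 7 Y features that reach 50 counts in total and are at 0 somewhere. Motifs, the kappa B consensus and TTCNNNGAA, were searched on both strands of RefSeq windows.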

Additional observations from a re-analysis of the deposited data

How the results depend on the processing

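Of 480 alternative values of single genes, 419 kept their direction and side of the threshold, 17 newly passed, 36 no longer passed and 8 reversed. With 1 library left out, Nfkbia reversed with indomethacin against control (-0.201 to 0.113 over the 10 fits; 0.096 without control replicate 1, 0.11 without indomethacin replicate 1), with diclofenac (-0.14, without diclofenac replicate 2, to 0.67) and with aspirin (-0.24, without aspirin replicate 2, to 0.37). Nfkb1 reversed with honokiol plus indomethacin against indomethacin (-0.56 to 0.0103, reached without indomethacin replicate 2). Birc3 reversed with honokiol plus indomethacin against control (-0.401 to 0.52; 0.52 without control replicate 1, 0.075 without honokiol plus indomethacin replicate 1), and had 0.0229 with a term for Y reads. Calls among the 6 genes with indomethacin against control were 1 as reported, 4 with no low-count filter, 2 with a stricter one, 2 with a term for Y reads, 4 with DESeq2, and 0 to 3 with 1 library left out. With diclofenac and with aspirin they were 5, then 2 with the term for Y reads (Socs3 and Stat3) and 2 to 5 with 1 library left out. For honokiol plus indomethacin against indomethacin they were 1, then 3 with no filter (Socs3, Birc3 and Tnfaip3), 2 with DESeq2 and 0 to 1 with 1 library left out, and against control 0, then 1 (Socs3) with no filter and 0 with any 1 library left out. Over all genes, indomethacin gave 127 calls, 834 with no filter, 381 with DESeq2 and 1 to 200 with 1 library left out. Diclofenac gave 1286, 2650 with no filter, 383 with the term for Y reads and 319 to 1434 with 1 library left out. Aspirin gave 2903, 683 with the term for Y reads and 462 to 3606 with 1 library left out. Honokiol plus indomethacin against indomethacin gave 56, 699 with no filter, 35 with the term for Y reads, 250 with DESeq2 and 0 to 118 with 1 library left out, and against control 0, 153 with no filter, 15 with DESeq2 and 0 to 1 with 1 library left out. The cause of these shifts was not tested. Whether the replicate numbers pair the samples was not settled. Deviations of same-numbered libraries correlated at -0.31 to 0.37 and above 0.1 in 4 of 10 pairs of groups. Those 4 were the pairs among control, indomethacin and honokiol plus indomethacin, and aspirin with diclofenac. The layout of the deposited counts divided the groups in the same way. Pairs across these sets had r of -0.15 to -0.31, so the check cannot exclude pairing within a set. With the replicate block, calls were 123, 935, 2106, 71 and 0 in the order above, and 1 call among the 6 genes was lost, Tnfaip3 with diclofenac (log2 fold change 1.62, edgeR adjusted p = 0.0504). Fits that leave a group with 1 library assume that it varies like the other groups.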
